A study of Mus musculus with 8 samples.

Results

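The unfolded protein response and the integrated stress response, represented here by 36 genes, were examined in double positive (DP) thymocytes with and without expression of a gain-of-function STING. The members were taken by gene symbol from a list that spans the stress sensors, their transcription factors and their target genes, and all 36 were found among the 55359 genes listed. They were divided into 4 arms, with 5 genes in the IRE1/XBP1 arm, 12 in the ATF6 and folding arm, 12 in the PERK/ATF4 arm and 7 in the arm of endoplasmic reticulum associated degradation (ERAD). Each gene was placed in 1 arm by convention, so a count per arm does not measure the activity of the sensor it is named after. RNA sequencing covered 8 samples of thymus cells from mice 5 weeks old, sorted as CD4 and CD8 double positive with absent to intermediate surface TCR beta. The 4 Lck-cre samples (replicates 5 to 8) carried LSL-Sting1-N153S together with Lck-cre, and the 4 control samples (replicates 1 to 4) were LSL-Sting1-N153S/+ without Cre. The allele, present in both groups, holds a loxP-flanked stop cassette ahead of Sting1 with the N153S change, and Cre under the Lck promoter, active from early T cell progenitors, removes the cassette. Each group had 1 female (replicates 5 and 1) and 3 males. The labels do not say whether each sample was a separate animal, so p-values measure the spread between these samples. Cells without the N153S allele were not analysed here. Lck-cre was in every Lck-cre sample and in no control, so an effect of Cre itself cannot be told apart from that of the opened allele.

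Proteins that enter the endoplasmic reticulum (ER) are folded there by chaperones and disulfide isomerases, and a surplus of unfolded protein is sensed by IRE1, ATF6 and PERK. IRE1 splices the Xbp1 mRNA, so that it encodes an active transcription factor. ATF6 travels to the Golgi and is cut there into an active factor, while PERK phosphorylates the translation factor eIF2 alpha, which slows translation in general but favours that of ATF4. Other kinases act on eIF2 alpha too, so ATF4 also answers amino acid shortage, and its target CHOP, the product of Ddit3, is known for its part in cell death. STING itself is an ER membrane protein. FPKM at the gene level does not separate spliced from unspliced Xbp1, and it measures neither ATF6 cleavage nor phosphorylation.

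Promoter sequences of the members were searched for known stress elements, and 4 are printed as examples of called members with a match. RefSeq windows (GRCm38.p6), from 250 bases before to 50 after the gene start, matched 31 of the 36 members by symbol, while Atf6, Derl1, Hyou1, Manf and Ppp1r15b had no window. The letters were searched on both strands for the ER stress response element (ERSE, CCAAT and CCACG with 9 bases between them), ERSE-II (ATTGG and CCACG with 1 base between them), the unfolded protein response element (UPRE, TGACGTGG) and the CARE element bound by ATF4 (TGATGNAA). An ERSE stood in 9 of 31 members (29.0%), against 37 of 27025 genes with a window (0.137%). These elements were first described in classical members of such lists, so that difference is not an independent finding. ERSE-II stood in 2 members (0.044% of genes), UPRE in 0 (0.714% of genes) and CARE in 6 (4.51% of genes). A match describes letters in the window and does not show a bound site. The windows are Hspa5 at chr2:34771840-34772139 (plus strand) and Calr at chr8:84846882-84847181 (minus strand), both with an ERSE, Dnajb11 at chr16:22857595-22857894 (plus strand) with an ERSE-II, and Slc7a11 at chr3:50443564-50443863 (minus strand) with 2 CARE elements. Capitals mark the motif, and each sequence runs 5′ to 3′ along the strand of the gene.
Hspa5: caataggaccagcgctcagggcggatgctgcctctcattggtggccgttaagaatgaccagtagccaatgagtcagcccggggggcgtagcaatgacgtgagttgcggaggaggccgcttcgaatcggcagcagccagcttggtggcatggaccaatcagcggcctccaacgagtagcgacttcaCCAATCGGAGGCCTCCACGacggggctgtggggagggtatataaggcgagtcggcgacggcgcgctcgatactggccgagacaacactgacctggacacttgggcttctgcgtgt
Calr: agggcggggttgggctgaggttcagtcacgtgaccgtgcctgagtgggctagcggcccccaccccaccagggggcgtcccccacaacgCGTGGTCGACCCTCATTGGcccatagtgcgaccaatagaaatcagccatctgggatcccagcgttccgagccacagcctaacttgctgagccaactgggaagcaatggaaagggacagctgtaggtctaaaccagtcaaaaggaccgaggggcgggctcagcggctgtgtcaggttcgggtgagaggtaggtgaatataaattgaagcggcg
Dnajb11: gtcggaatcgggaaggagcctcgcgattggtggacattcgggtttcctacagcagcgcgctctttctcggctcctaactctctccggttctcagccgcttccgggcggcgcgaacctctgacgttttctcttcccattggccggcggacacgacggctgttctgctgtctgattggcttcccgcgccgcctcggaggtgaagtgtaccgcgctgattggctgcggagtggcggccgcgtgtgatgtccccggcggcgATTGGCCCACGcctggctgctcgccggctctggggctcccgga
Slc7a11: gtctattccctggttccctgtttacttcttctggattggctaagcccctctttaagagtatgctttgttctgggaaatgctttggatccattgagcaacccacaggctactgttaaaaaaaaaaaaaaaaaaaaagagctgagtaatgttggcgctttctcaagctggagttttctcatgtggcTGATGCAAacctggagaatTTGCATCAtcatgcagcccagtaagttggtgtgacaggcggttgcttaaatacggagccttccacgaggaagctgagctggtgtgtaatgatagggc

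The ERSE matches alone, each written 5′ to 3′ in the direction that begins with CCAAT, are set beside each other for the members of the folding arm, since the 9 bases between the fixed ends differed from gene to gene. Hsp90b1 held 2 of them. Outside the folding arm, Dnajc3, Derl3 and Syvn1 also had a match.
Hspa5: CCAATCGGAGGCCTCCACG
Calr: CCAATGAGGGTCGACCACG
Canx: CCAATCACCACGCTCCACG
Creld2: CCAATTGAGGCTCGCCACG
Pdia6: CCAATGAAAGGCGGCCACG
Hsp90b1, first match: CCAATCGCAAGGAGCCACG
Hsp90b1, second match: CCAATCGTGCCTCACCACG

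**Figure D1:**
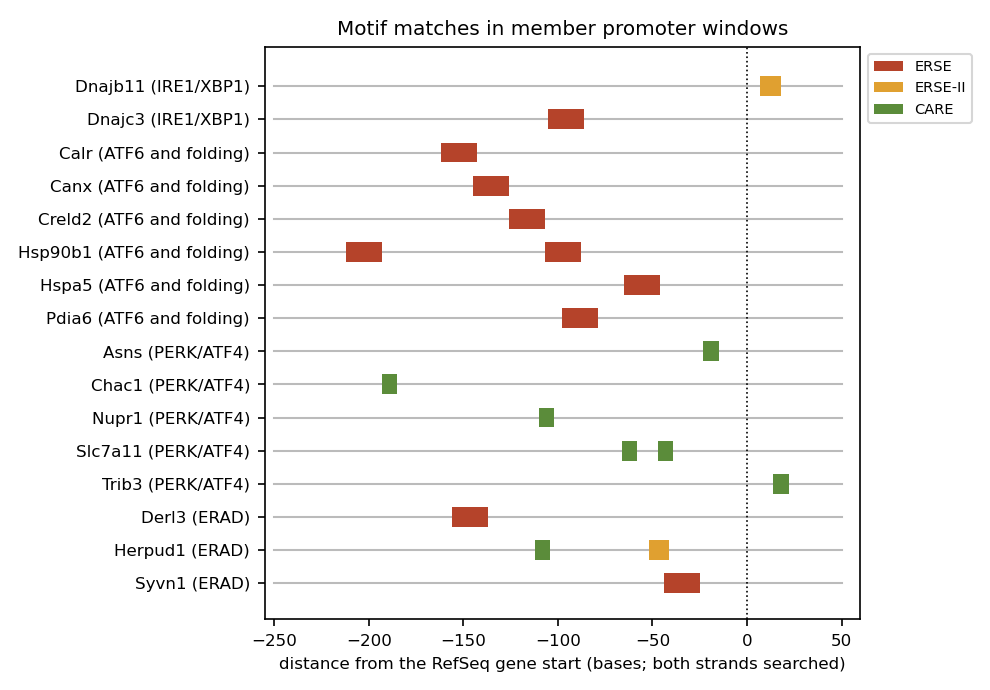
Position of motif matches in the RefSeq promoter windows of the 16 members with at least 1 match (x axis, bases from the gene start, dotted line at the start; 1 row per gene, with its arm in brackets). ERSE matches (red) stood in 6 folding, 1 IRE1/XBP1 and 2 ERAD genes, and CARE matches (green) in 5 PERK/ATF4 genes and in Herpud1.

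The tables gave FPKM, fragments scaled by gene length and by the mapped total of the sample, which allows levels to be compared between genes per unit length. With no read counts in the tables, depth is known only as coverage, and mean coverage per base of the tested members lay between 11.1 and 1901. Sting1, as a check of the labels, had 221, 85.4, 129.6 and 232 FPKM in Lck-cre replicates 5 to 8, against 15.3, 11.6, 13.4 and 11.9 FPKM in control replicates 1 to 4. Its log2 change was 3.52 (SE 0.25, adjusted p = 0.00213 by limma, higher in 4 of 4 samples), and an exact permutation test (two-sided, difference of means) returned p = 0.0286, the lowest value possible with 4 samples in each group. Of 11 DP markers, among them Cd4, Cd8a and Rag1, 0 lay under 0.1 FPKM in all samples, while 4 of 11 B cell and plasma cell markers did, among them Ms4a1, Pax5 and Tnfrsf17, and the highest of the other 7 was Ighm at 505 ± 27.3 FPKM in Lck-cre samples and 403 ± 20.6 FPKM in controls (SD, n = 4 each).

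The comparison of Lck-cre with control DP thymocytes asked which members differed once the stop cassette was open to Cre. In the ATF6 and folding arm 9 of 12 genes were higher in Lck-cre, among them the chaperones Hspa5 and Calr but neither Hsp90b1 nor Pdia6. The transcripts of the transducers XBP1 and PERK were lower, and those of ATF4, CHOP and the 6 tested ERAD members did not pass the test. Of the 36 members, 31 had an FPKM of at least 1 in all 8 samples and were tested, and 5 (Trib3, Chac1, Asns, Nupr1 and Derl3) lay below 1 FPKM in all 8. With limma's moderated test on log2(FPKM + 0.5) and Benjamini-Hochberg adjustment over 12337 genes, 15 of 31 passed an adjusted p of 0.05 (48.4%), against 25.8% of all tested genes. In Lck-cre 12 members rose, where 15.4% of all genes did, and 3 fell, where 10.4% of all genes did. The members were chosen with earlier results of these data known, so these differences from all genes are not an independent finding. With TPM, which sets each sample to an equal total, 8 members rose and 3 fell, and the split over all genes turned to 1300 higher and 2067 lower, beside 1901 higher and 1279 lower with FPKM. The median log2 change of the 31 was 0.09, beside 0.012 over all tested genes. Without either female (Lck-cre replicate 5 or control replicate 1) 3 members, Hyou1, Calr and Sdf2l1, were called, beside 5.24% and 5.29% of all genes. Without control replicate 2, 8 members passed, beside 10.2% of all genes. All 15 kept their direction in each of these fits. In bulk RNA, fewer cells of a type and less RNA per cell cannot be told apart.

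**Figure D2:**
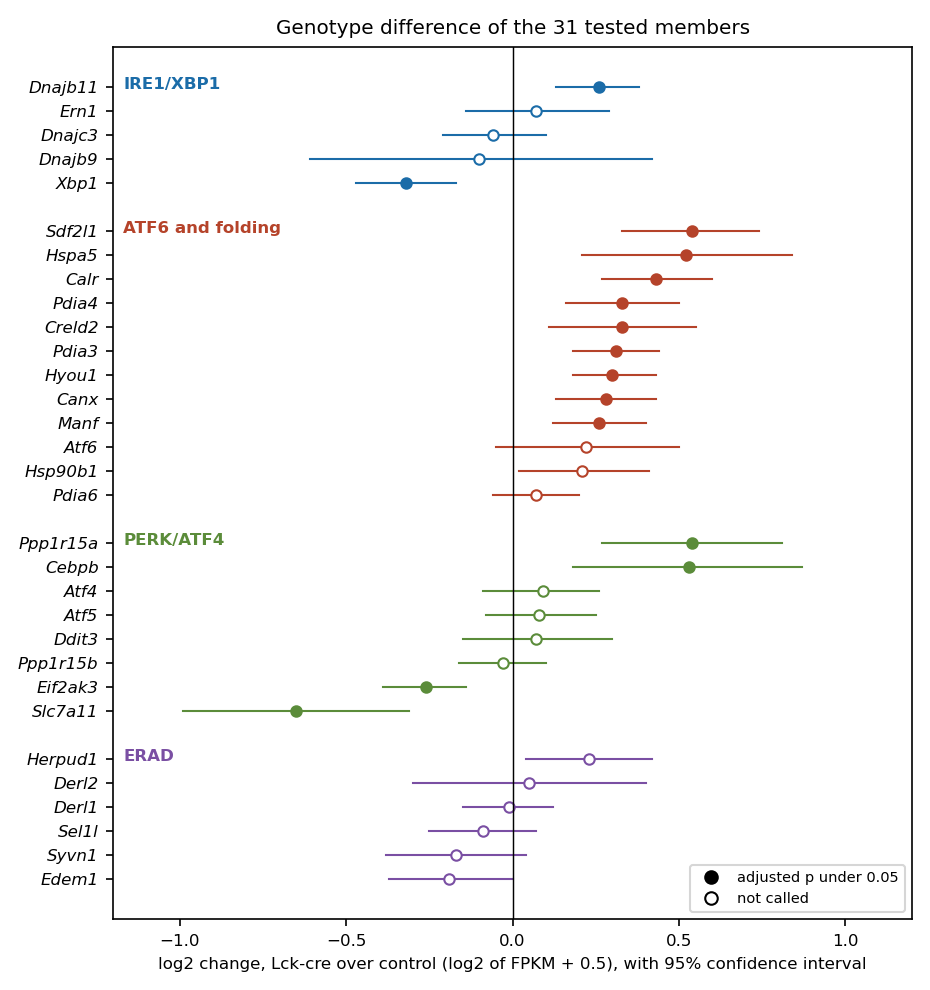
Log2 change of the 31 tested members (x axis, Lck-cre over control on log2 of FPKM + 0.5; dots, limma estimate; lines, 95% confidence interval; filled, adjusted p under 0.05), by arm. All 12 dots of the folding arm lie right of 0 (with TPM, Pdia6 lay at -0.01) and 9 are filled, whereas 0 of 6 are filled in the ERAD arm.

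Among the sensors and transducers, Xbp1 and Eif2ak3 fell, and Ern1, Atf6, Atf4 and Ddit3 did not pass. Xbp1, the target of IRE1 splicing, had 66.0, 68.3, 63.6 and 57.3 FPKM in Lck-cre replicates 5 to 8, against 86.9, 76.9, 77.6 and 76.8 FPKM in control replicates 1 to 4. Every Lck-cre sample lay below every control, and Xbp1 fell by 0.32 on the log2 scale (SE 0.07, adjusted p = 0.0132 by limma, 95% confidence interval -0.47 to -0.17). Eif2ak3, which encodes PERK, had 34.3, 32.2, 30.3 and 30.4 FPKM in Lck-cre samples, against 42.7, 38.0, 35.8 and 36.5 FPKM in controls. These groups did not overlap either, with a log2 change of -0.26 (SE 0.06, adjusted p = 0.0135 by limma). Without Lck-cre replicate 5 or control replicate 1 the adjusted p was 0.0626 and 0.0630 for Xbp1 and 0.0631 and 0.0632 for Eif2ak3.

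Ern1, the gene of IRE1, was a low transcript with 4.47, 3.42, 3.69 and 4.16 FPKM in Lck-cre samples, against 3.60, 3.78, 3.68 and 3.74 FPKM in controls. The Lck-cre samples lay on both sides of the narrow control range (log2 change 0.07, 95% confidence interval -0.14 to 0.29, adjusted p = 0.591 by limma). Atf6 was lower still, at 2.42, 1.85, 2.24 and 2.85 FPKM in Lck-cre samples and 1.92, 1.89, 1.90 and 1.94 FPKM in controls. Lck-cre replicate 6 lay below the 4 controls and the other 3 above them (log2 change 0.22, interval -0.05 to 0.50, adjusted p = 0.194 by limma). In the order of sensor levels per length, Eif2ak3 at 31.8 ± 1.87 and 38.3 ± 3.10 FPKM stood far above Ern1 at 3.94 ± 0.469 and 3.70 ± 0.0773 FPKM, and Ern1 above Atf6 at 2.34 ± 0.415 and 1.91 ± 0.0241 FPKM (Lck-cre and control, SD, n = 4 each).

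The other genes of the IRE1/XBP1 arm were the ER co-chaperones of the DnaJ family, which lend substrates to the chaperone BiP. Dnajb11 had 52.8, 50.3, 55.5 and 55.0 FPKM in Lck-cre samples, against 45.8, 44.2, 44.8 and 43.7 FPKM in controls. The groups were apart and Dnajb11 rose, with a log2 change of 0.26 (SE 0.06, adjusted p = 0.0155 by limma), a call that ended without Lck-cre replicate 5 (0.0548), control replicate 1 (0.0549) or control replicate 2 (0.0504). Dnajb9, a classical target of spliced XBP1, lay at 10.1 to 14.6 FPKM in Lck-cre samples and at 9.74 to 22.2 FPKM in controls (log2 change -0.10, interval -0.61 to 0.42, adjusted p = 0.782 by limma). The control value of 22.2 came from replicate 4 and the other 3 controls lay at 9.74 to 12.1 FPKM. Without that sample the log2 change of Dnajb9 turned to 0.18 (SE 0.09, adjusted p = 0.199 by limma). Dnajc3, which also restrains PERK, averaged 43.3 ± 3.34 FPKM in Lck-cre samples and 44.9 ± 1.51 FPKM in controls (SD, n = 4 each; adjusted p = 0.566 by limma). The arm as a whole thus had 1 gene that rose, 1 that fell and 3 that did not pass, with a median log2 change of -0.06. Of all tested genes 15.4% rose and 10.4% fell.

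In the ATF6 and folding arm, 9 of 12 members rose and 0 fell by limma (75.0% called, beside 25.8% of all tested genes). The median log2 change was 0.31, and 10 members had an unadjusted p under 0.05. With TPM 6 of the 12 rose and 0 fell by limma, with a median of 0.23. Hspa5 encodes BiP, the main ER chaperone of the Hsp70 family. Its levels were 123, 94.0, 108 and 147 FPKM in Lck-cre samples, against 78.7, 73.4, 76.1 and 96.9 FPKM in controls. Lck-cre replicate 6 lay below control replicate 4 and the other samples kept the groups apart. Hspa5 rose 1.45-fold in mean FPKM (log2 change 0.52, SE 0.14, adjusted p = 0.0272 by limma). Its adjusted p was 0.101 without Lck-cre replicate 5, and 0.10, 0.0818 and 0.0563 without control replicates 1, 2 and 3.

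Calr, the lectin chaperone calreticulin, was the most abundant of the folding genes. It had 174, 164, 183 and 199 FPKM in Lck-cre samples, against 124, 131, 132 and 145 FPKM in controls, so that the lowest Lck-cre sample exceeded the highest control. Calr rose 1.35-fold (log2 change 0.43, SE 0.07, adjusted p = 0.00892 by limma). Its membrane-bound counterpart Canx, or calnexin, also rose, with 71.5 ± 4.70 FPKM in Lck-cre samples and 59.0 ± 4.61 FPKM in controls (SD, n = 4 each; adjusted p = 0.0199 by limma). The call of Canx ended without Lck-cre replicate 5 (0.0888) or control replicates 1 (0.0890) or 2 (0.0589), and with TPM (0.0673).

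Sdf2l1, a partner of the BiP and DnaJ complex, had 15.9, 15.9, 17.2 and 17.7 FPKM in Lck-cre samples, against 9.54, 10.3, 13.3 and 12.5 FPKM in controls. It showed the largest log2 change of the arm, at 0.54 (SE 0.09, adjusted p = 0.00905 by limma), with no overlap. Hyou1, a large Hsp70-related chaperone that exchanges nucleotide on BiP, had 28.5, 28.1, 29.6 and 29.6 FPKM in Lck-cre samples, against 22.9, 22.6, 24.1 and 24.0 FPKM in controls. The spread within each group was under 1 FPKM (SD 0.754 in Lck-cre and 0.745 in controls), and Hyou1 rose by a log2 change of 0.30 (SE 0.06, adjusted p = 0.00988 by limma). For Hyou1, Calr and Sdf2l1 the adjusted p with 1 sample left out reached at most 0.0485, 0.0463 and 0.0463, and each was called under every alternative tried.

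The protein disulfide isomerases of the list, which form and reshuffle disulfide bonds, divided. Pdia3, which works with calnexin and calreticulin, had 102, 99.1, 105 and 110.1 FPKM in Lck-cre samples, against 79.4, 82.9, 84.1 and 88.4 FPKM in controls. Pdia4 had 21.3, 19.1, 22.3 and 22.8 FPKM in Lck-cre samples, against 16.5, 18.3, 16.4 and 16.5 FPKM in controls. Neither gene overlapped between groups, and both rose (log2 changes of 0.31 and 0.33, adjusted p of 0.0105 and 0.0175 by limma). Both calls ended without Lck-cre replicate 5 (0.0524 and 0.0714) or control replicate 1 (0.0518 and 0.0707). Pdia6 lay at 50.2 to 56.3 FPKM in Lck-cre samples and 49.2 to 52.3 FPKM in controls, overlapping (log2 change 0.07, interval -0.06 to 0.20, adjusted p = 0.411 by limma, and -0.01 with TPM).

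Manf, a secreted ER protein with protective effects on stressed cells, had 36.1, 37.4, 37.5 and 37.7 FPKM in Lck-cre samples, against 28.7, 31.1, 30 and 34.2 FPKM in controls, and rose (log2 change 0.26, SE 0.06, adjusted p = 0.0177 by limma). The listed span of Manf overlaps Rbm15b on the same strand and Dcaf1 on the opposite strand, so its reads may not be separate from theirs. Creld2, an ER protein with isomerase activity, rose with 17.6 ± 2.41 FPKM in Lck-cre samples and 13.8 ± 0.859 FPKM in controls (SD, n = 4 each; adjusted p = 0.0349 by limma). For Creld2 the call held without Lck-cre replicate 6 but ended without any of the other 7 samples (0.0515 to 0.120), and that of Manf without Lck-cre replicate 5 (0.0779) or control replicates 1 (0.0775) or 2 (0.0569). With TPM, Creld2 had an adjusted p of 0.0777 and Manf one of 0.0677. Hsp90b1, the ER member of the Hsp90 family, had 98.7 ± 12 FPKM in Lck-cre samples and 84.8 ± 7.40 FPKM in controls, with overlap (log2 change 0.21, interval 0.02 to 0.41, adjusted p = 0.0905 by limma). Of the 8 tested members with an ERSE in the promoter window, Hspa5, Calr, Canx and Creld2 rose and Hsp90b1, Pdia6, Dnajc3 and Syvn1 did not pass. Among the other genes with an ERSE in the window, 25 were found by symbol and 7 tested, of which 0 were called by limma (2 at an unadjusted p under 0.05, and 2 called with TPM). In the folding arm, Pdia3, Pdia4 and Sdf2l1 had none of the searched motifs in the window and also rose. Rises in this arm were thus not limited to genes with an exact ERSE match in the window. An element outside the window, or with other letters, would have been missed.

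**Figure D3:**
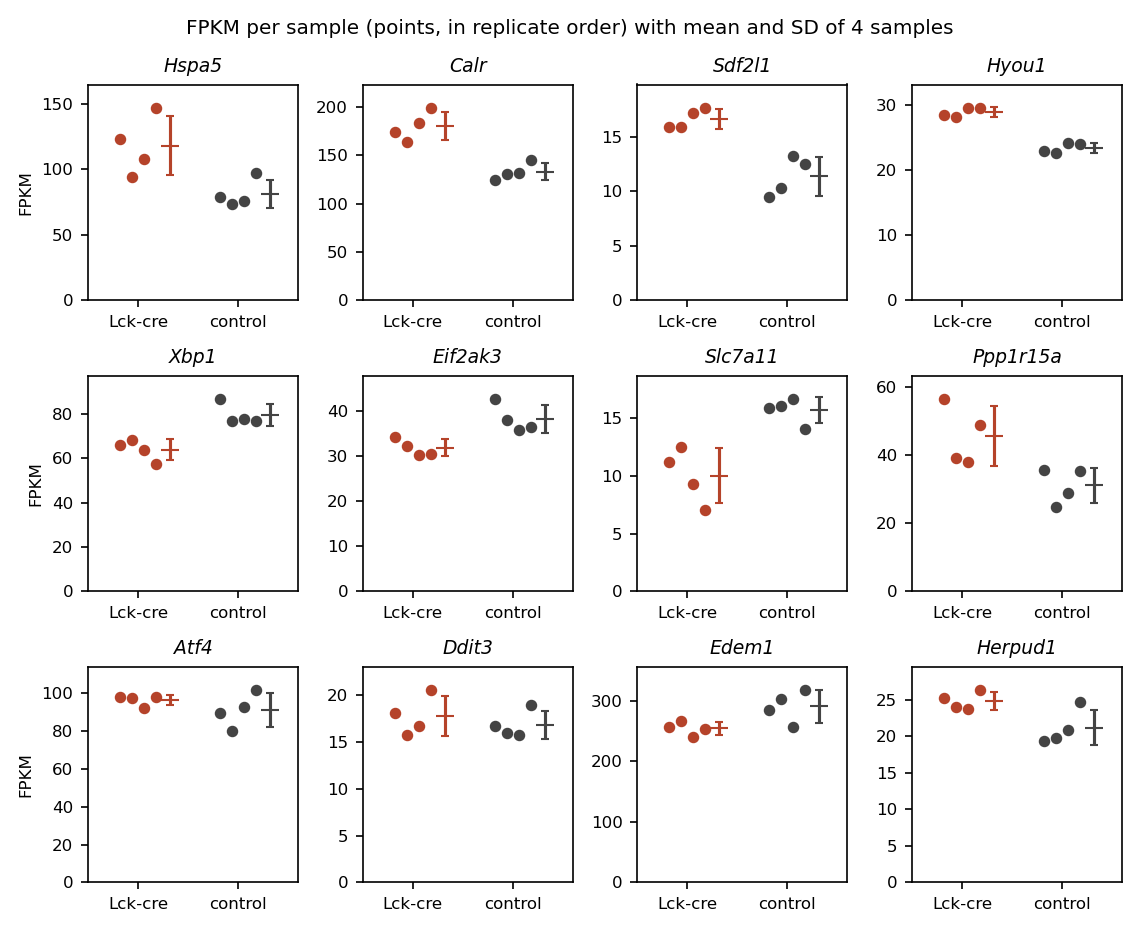
FPKM of 12 members in each sample (y axes start at 0; points, replicates 5 to 8 of Lck-cre on the left and 1 to 4 of control on the right; bar, mean with SD of 4 samples). Calr, Sdf2l1 and Hyou1 have every Lck-cre sample above every control, Xbp1, Eif2ak3 and Slc7a11 have every Lck-cre sample below, and Atf4 and Ddit3 overlap.

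In the PERK/ATF4 arm, 2 of 8 tested members rose and 2 fell, beside 15.4% and 10.4% of all tested genes, with a median log2 change of 0.08. Atf4, the transcription factor of the integrated stress response, had 98.1, 97.6, 92.4 and 98.1 FPKM in Lck-cre samples, against 89.7, 80.0, 93.0 and 102 FPKM in controls. The Lck-cre values lay inside the control range (log2 change 0.09, interval -0.09 to 0.26, adjusted p = 0.437 by limma). ATF4 is controlled to a large degree through translation, which these data do not measure. Ddit3, which encodes CHOP, had 18.1, 15.7, 16.7 and 20.6 FPKM in Lck-cre samples, against 16.7, 16.0, 15.7 and 19.0 FPKM in controls. The groups overlapped almost throughout (log2 change 0.07, interval -0.15 to 0.30, adjusted p = 0.610 by limma, and -0.01 without Lck-cre replicate 8). Atf5, another ATF4-related factor, averaged 9.0 ± 0.308 FPKM in Lck-cre samples and 8.47 ± 0.504 FPKM in controls (SD, n = 4 each; adjusted p = 0.408 by limma).

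The genes of the phosphatase subunits that return eIF2 alpha to its unphosphorylated state differed from each other. Ppp1r15a, or GADD34, is the stress-induced subunit, and it had 56.5, 39.0, 37.9 and 48.8 FPKM in Lck-cre samples, against 35.5, 24.8, 28.9 and 35.2 FPKM in controls. All 4 Lck-cre samples exceeded the controls and Ppp1r15a rose 1.46-fold (log2 change 0.54, SE 0.12, adjusted p = 0.0151 by limma). Its adjusted p was 0.0674 without Lck-cre replicate 5 and 0.0672 without control replicate 1. Ppp1r15b, the constitutive subunit, averaged 40.7 ± 0.982 FPKM in Lck-cre samples and 41.6 ± 2.05 FPKM in controls (SD, n = 4 each; log2 change -0.03, interval -0.16 to 0.10, adjusted p = 0.729 by limma). Cebpb, a transcription factor that pairs with CHOP and ATF4, had 9.17, 7.56, 7.99 and 8.77 FPKM in Lck-cre samples, against 5.24, 4.22, 6.01 and 7.56 FPKM in controls. It rose (log2 change 0.53, SE 0.15, adjusted p = 0.0355 by limma), with Lck-cre replicate 6 level with control replicate 4. The call of Cebpb ended with TPM (0.0517) and without any of 6 samples, Lck-cre replicates 5, 7 and 8 or control replicates 1, 2 and 3 (0.0522 to 0.134). Ppp1r15a and Cebpb are also early response genes. Of a list of dissociation stress genes, 6 of 14 tested rose and 1 fell, beside 15.4% and 10.4% of all genes. The summed level of that list was 1408 to 1792 FPKM in Lck-cre samples and 1047 to 1604 FPKM in controls, and its part in these 2 results was not tested.

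Slc7a11, the cystine importer of system xc- and a target of ATF4, fell in Lck-cre. It had 11.2, 12.5, 9.31 and 7.08 FPKM in Lck-cre samples, against 15.9, 16.1, 16.7 and 14.1 FPKM in controls. The groups did not overlap, and the log2 change of -0.65 (SE 0.15, adjusted p = 0.0170 by limma) was the largest in size among the members. Without Lck-cre replicate 5 or control replicates 1 or 2 the adjusted p was 0.0546, 0.0545 and 0.0547. Its window is the one printed above with 2 CARE elements.

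Other strongly stress-inducible members of this arm were barely detected. Asns, asparagine synthetase, had 0.0381, 0.0315 and 0.126 FPKM in Lck-cre replicates 5, 6 and 8 and was listed at 0 in replicate 7, against 0.0374, 0.0426, 0.0126 and 0.0132 FPKM in controls. Chac1, which degrades glutathione, was listed at 0 in 7 samples and at 0.0316 FPKM in Lck-cre replicate 8. Nupr1 reached 0.0101 FPKM at most in Lck-cre samples and 0.0221 FPKM in controls. Trib3, a pseudokinase induced by CHOP, lay at 0.505 to 0.733 FPKM in Lck-cre samples and at 0.364 to 0.703 FPKM in controls. With no filter on low values these genes entered the test and none of them was called. Asns, Chac1, Nupr1 and Trib3 each had a CARE in the promoter window.

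In the ERAD arm, which returns misfolded proteins to the cytosol for degradation, 0 of 6 tested members passed limma's test, beside 25.8% of all genes. Of these 6 members 2, Edem1 and Herpud1, had an unadjusted p under 0.05. Edem1, a lectin that routes misfolded glycoproteins, was the most abundant member of all 36 per unit length. It had 257, 266, 240.0 and 253 FPKM in Lck-cre samples, against 284, 303, 256 and 318 FPKM in controls. The log2 change was -0.19 (interval -0.37 to -0.00, adjusted p = 0.115 by limma), and Edem1 passed without control replicate 3 (0.0419). Herpud1, a scaffold of the ERAD complex, had 25.2, 24.0, 23.7 and 26.4 FPKM in Lck-cre samples, against 19.4, 19.8, 20.9 and 24.7 FPKM in controls. The 2 groups met only through control replicate 4, without which Herpud1 passed (log2 change with all samples 0.23, interval 0.04 to 0.42, adjusted p = 0.0741 by limma, and 0.0334 without that sample).

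The ubiquitin ligase of the complex, Syvn1 (HRD1), and its partner Sel1l had adjusted p of 0.192 and 0.355 by limma. Syvn1 averaged 32.9 ± 1.70 FPKM in Lck-cre samples and 37.3 ± 4.65 FPKM in controls, and Sel1l averaged 15.2 ± 0.352 and 16.3 ± 1.22 FPKM (SD, n = 4 each). Of the Derlins, channel proteins of the retrotranslocation step, Derl1 averaged 33.0 ± 1.59 FPKM in Lck-cre samples and 33.4 ± 1.22 FPKM in controls. Derl2 lay at 10.9 to 19.4 FPKM in Lck-cre samples and 11.6 to 14.6 FPKM in controls, the value of 19.4 coming from replicate 7, without which its log2 change of 0.05 turned to -0.11. Derl3 stayed below the minimum, at 0.447 to 0.961 FPKM in Lck-cre samples and 0.563 to 0.866 FPKM in controls. The median log2 change of the ERAD arm was -0.05, beside 0.31 in the folding arm, and the difference between the arms was not tested.

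Further genes of the same pathways were taken from 8 lists without members, in which 42 of 136 tested genes rose and 2 fell (32.4%, beside 25.8% of all genes, median log2 change 0.13). These lists too were chosen with earlier results known, so that difference is not an independent finding. With TPM 24 rose and 6 fell. In males only 9 rose and 0 fell by limma, while 5.28% of all genes passed. Of 20 other ERAD factors 0 passed limma's test, with 1 at an unadjusted p under 0.05 and a median of -0.02. Of the ATF6 relatives and the proteases that cut ATF6, 0 of 5 passed by limma, with 3 at an unadjusted p under 0.05 and a median of -0.20, and with TPM 2 of them fell. The site 1 and site 2 proteases Mbtps1 and Mbtps2 lay at 77.8 ± 8.32 and 16.0 ± 1.61 FPKM in Lck-cre samples, against 89.7 ± 5.80 and 18.4 ± 1.23 FPKM in controls (SD, n = 4 each; adjusted p of 0.110 and 0.0878 by limma).

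Among other ATF4 targets, 15 of 27 tested rose and 0 fell (median log2 change 0.24), beside 15.4% and 10.4% of all genes. With TPM 9 rose, and with males only 6 were called, beside 5.28% of all genes. The smallest adjusted p was that of Slc7a5, a carrier of large neutral amino acids, which rose 1.86-fold with 19.0 ± 2.06 FPKM in Lck-cre samples and 10.2 ± 0.521 FPKM in controls (SD, n = 4 each; log2 change 0.86, adjusted p = 0.00565 by limma). Next, with equal adjusted p of 0.00750 by limma, came the serine synthesis genes Phgdh and Psat1 and the mitochondrial folate genes Shmt2 and Mthfd2. Phgdh had 109 ± 16.9 FPKM in Lck-cre samples and 61.5 ± 6.88 FPKM in controls, and Psat1 had 29.4 ± 3.42 and 17.5 ± 2.52 FPKM. Shmt2 had 53.6 ± 9.98 FPKM in Lck-cre samples and 29.2 ± 3.77 FPKM in controls, and Mthfd2 had 22.9 ± 2.88 and 13.3 ± 2.06 FPKM. These metabolic genes have regulators besides ATF4, and 9 further list members, among them Atf3, Gdf15 and Stc2, lay below the minimum. Of 217 tested genes with a CARE in the promoter window that were not members, 38 rose and 22 fell by limma. These were 27.6%, close to the 25.8% of all genes, with a median log2 change of 0.01. Of the list of other eIF2 kinases, eIF2 and its exchange factor eIF2B, 5 of 12 rose and 0 fell by limma (2 with TPM, 0 in males only). The kinases Eif2ak1, Eif2ak2 and Eif2ak4 did not pass (adjusted p of 0.247, 0.143 and 0.303 by limma). Among the genes that rose was Eif2s1, eIF2 alpha itself, at 22.3 ± 1.97 FPKM in Lck-cre samples and 16.8 ± 0.780 FPKM in controls (adjusted p = 0.0107 by limma). The call of Eif2s1 and that of Eif2b5, at 34.1 ± 0.944 FPKM in Lck-cre samples and 28.9 ± 0.904 FPKM in controls (adjusted p = 0.0183 by limma), ended with 1 sample left out (up to 0.0529 and 0.0821).

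Of the genes that bring proteins into the ER, on the translocon, signal peptidase and glycosylation list, 10 of 29 rose and 0 fell by limma (median 0.13), beside 15.4% and 10.4% of all genes, and 19 did not pass. With TPM 5 rose and 1 fell, and in males only 1 was called. Rpn2 and Rpn1, subunits of the oligosaccharyltransferase, had 84.4 ± 4.72 and 42.6 ± 2.62 FPKM in Lck-cre samples, against 66.1 ± 4.46 and 33.1 ± 1.87 FPKM in controls (adjusted p of 0.00947 and 0.0109 by limma, and up to 0.0463 and 0.0517 with 1 sample left out). Of other folding enzymes 5 of 17 rose and 1 fell (35.3% called, beside 25.8% of all genes). Prdx4, an ER peroxiredoxin, and P4hb, the prototype disulfide isomerase, rose, with 13.4 ± 1.41 and 78.4 ± 3.97 FPKM in Lck-cre samples against 8.28 ± 1.09 and 62.3 ± 4.69 FPKM in controls. The membrane-bound thioredoxin Tmx3 fell (15.8 ± 0.650 FPKM in Lck-cre samples, 18.3 ± 0.434 FPKM in controls, adjusted p = 0.0342 by limma, up to 0.10 with 1 sample left out). Of ER to Golgi transport genes 4 of 19 rose and 1 fell (26.3% called, close to the 25.8% of all genes), with 0 called in males only. Sec23b and Sec13 of the COPII coat rose and Sec24c of the same coat fell, with log2 changes of 0.27, 0.29 and -0.23 (adjusted p of 0.0157, 0.0226 and 0.0257 by limma, up to 0.0588, 0.0666 and 0.103 with 1 sample left out). Of apoptosis genes linked to CHOP, 3 of 7 rose and 0 fell by limma, beside 15.4% and 10.4% of all genes. With males only, 1 of the 7 was called, beside 5.28% of all genes. The 3 that rose included Bax with 68.2 ± 4.09 FPKM in Lck-cre samples and 50.9 ± 3.13 FPKM in controls, and Pmaip1 with 2.40 ± 0.913 and 1.21 ± 0.250 FPKM. Both are also p53 targets, and the call of Pmaip1 (adjusted p = 0.0374 by limma) had an adjusted p of up to 0.127 with 1 sample left out.

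**Figure D4:**
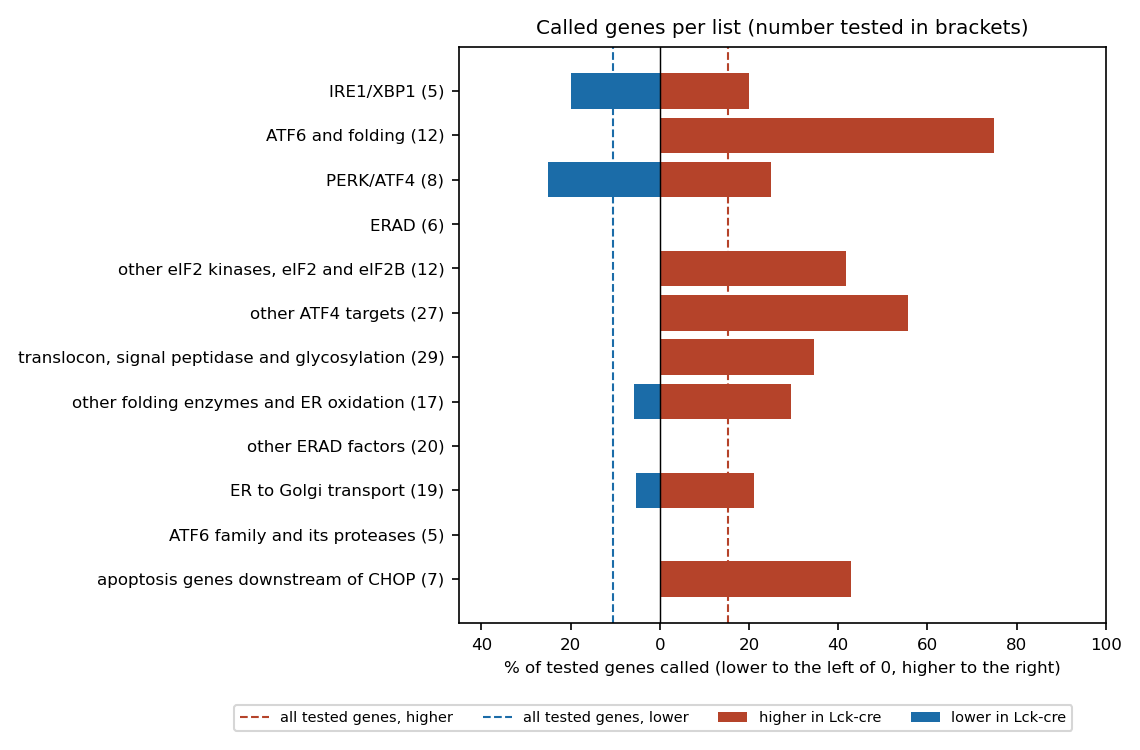
Share of tested genes called in each arm and list (x axis, percent; red bars to the right, higher in Lck-cre; blue bars to the left, lower; number tested in brackets; dashed lines, shares of all tested genes, 15.4% higher and 10.4% lower). The folding arm reached 75.0%, and the ERAD arm, the other ERAD factors and the ATF6 family have no bar.

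The same Lck-cre samples lay nearest to and farthest from the controls in many called members. Of the 15 called members, Lck-cre replicate 6, which had the lowest Sting1, lay nearest to the control mean in 12 (80.0%), as it did in 66.1% of all 3180 called genes. Lck-cre replicate 8, which had the highest Sting1, lay farthest from it in 11 (73.3%), beside 55.9% of all called genes. Lck-cre replicate 5, with Sting1 at 221 FPKM beside 232 FPKM in replicate 8, lay farthest in 2 (13.3%, beside 13.2% of all called genes). A relation of the members to the Sting1 level was not tested. The median deviation of the 12 folding genes from the control mean was 0.28, 0.21, 0.30 and 0.44 on the log2 scale in Lck-cre replicates 5 to 8, against -0.08, -0.02, -0.00 and 0.12 in control replicates 1 to 4. All 4 Lck-cre samples were above the 4 controls, and control replicate 4 was the highest control. For the 6 ERAD genes the same median was -0.11, -0.04, -0.09 and -0.08 in Lck-cre samples, against -0.01, -0.03, -0.13 and 0.11 in controls, so that the groups overlapped.

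**Figure D5:**
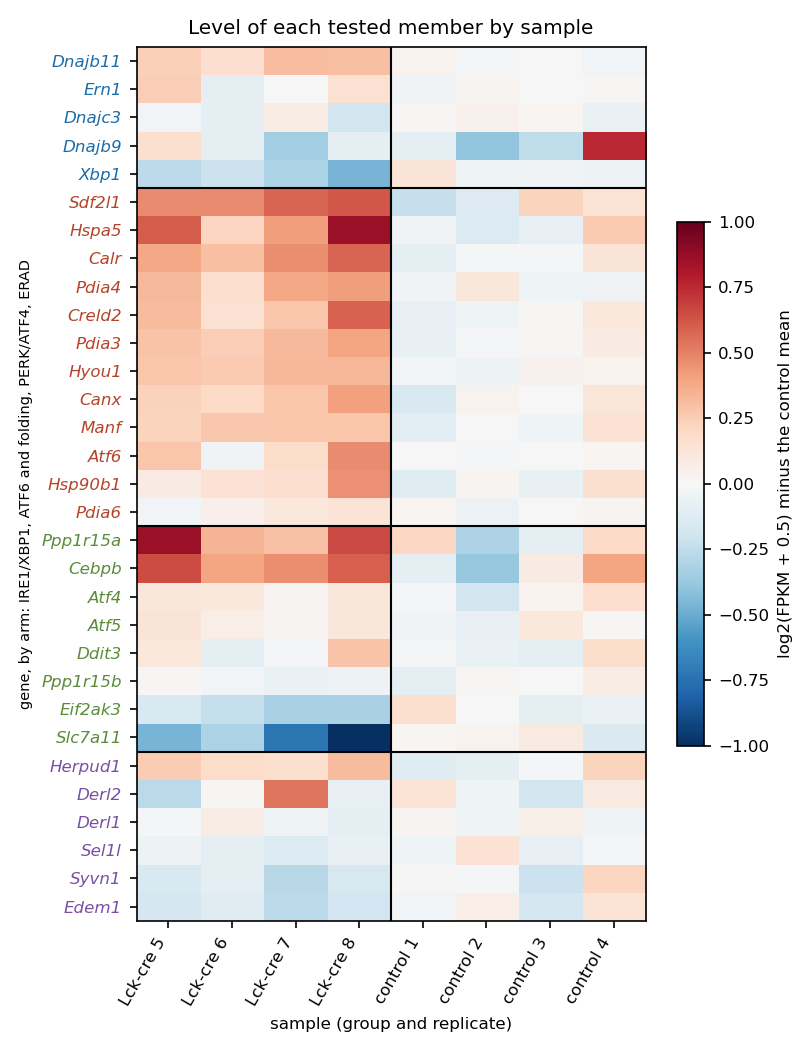
Level of each tested member in each sample (colour, log2 of FPKM + 0.5 minus the mean of the 4 controls; red above, blue below; rows by arm, columns Lck-cre replicates 5 to 8 and control replicates 1 to 4). Rows of the folding arm are mostly red across the Lck-cre columns and palest in replicate 6, while Xbp1, Eif2ak3 and Slc7a11 are blue there.

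Several lists of markers for other cell states and cell types also differed between the groups. For all counts of calls in these lists, the shares of all tested genes were 15.4% higher and 10.4% lower. Of 14 proliferation genes 13 rose and 0 fell by limma, and their summed level was 1548 to 2059.5 FPKM in Lck-cre samples and 971 to 1334 FPKM in controls. The part of the cell cycle in the results above was not tested. The summed level of 10 myeloid and dendritic markers was 13.7 to 25.1 FPKM in Lck-cre samples and 9.94 to 10.4 FPKM in controls, with Csf1r and Adgre1 under 0.1 FPKM in all 8. That of 11 plasma and B cell markers was 489 to 549.9 FPKM in Lck-cre samples and 402 to 453 FPKM in controls, nearly all of it Ighm. For 10 markers of mature, gamma delta and NK cells it was 114 to 136 FPKM in Lck-cre samples and 100.2 to 103 FPKM in controls, and for 9 thymic stroma markers 55.0 to 62.2 and 47.0 to 58.5 FPKM. For the 11 DP markers it was 4418 to 5697 FPKM in Lck-cre samples and 5705 to 6124 FPKM in controls, with 1 risen and 4 fallen. By limma, 3 of 4 tested myeloid and dendritic markers and 3 of 5 tested mature, gamma delta and NK markers rose. Of plasma and B cell markers 1 of 3 tested rose, and of stroma markers 0 of 2. Outside the DP list, 0 of these cell type markers fell. The part of these cell types in the results was not tested.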

How the data were processed

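RNA of sorted thymocytes was sequenced in 8 samples, 4 Lck-cre and 4 control, grouped by their titles. Per the submitters' processing notes, HISAT and Bowtie2 were used. The roles and versions of these tools, the build, annotation, quantifier and strandedness are not stated there. Without strand, reads of members that overlap a gene on the other strand (Ddit3 with Mars1, Atf5 with Nup62, Cebpb with Tmem189, Derl2 with Mis12) may be mixed. Each deposited table holds FPKM per the file headers, summing to 437778 to 457145 in Lck-cre samples and 413835 to 437426 in controls. Every Lck-cre sum thus lay above every control sum. The deposited TPM column rescales the values of the authors to an equal total. The deposited coverage column gives mean read coverage per base, and 1 FPKM most often stood for a coverage of 7.53 to 7.89, so relative depth was similar.

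Entries with the same gene ID were summed, and of the 2 genes named Ddit3 the one with the higher mean was taken. Of 55359 genes, the 12337 that reached 1 FPKM in 4 or more samples were tested on log2(FPKM + 0.5) by limma 3.58.1 (R 4.3.3). The model held sex and genotype, with trended empirical Bayes and two-sided tests. A gene was called at a Benjamini-Hochberg adjusted p under 0.05 over all tested genes. This scale understates changes of low genes, and folds are ratios of mean FPKM. The fit was checked on simulated data. Python 3.11.15 with NumPy 2.4.6, pandas 2.3.3 and SciPy 1.17.1 made the summaries. The members and lists were chosen with earlier results of these data known. Of 270 list entries, 259 matched by symbol and 10 by an older symbol, and Hm13 was not found. Values in every sample are given for Hspa5, Xbp1, Ern1, Atf6, Eif2ak3, Atf4, Ddit3 and the called members, up to the 6 with the smallest adjusted p per arm, and each list is shown by its 2 strongest rises and 2 strongest falls by adjusted p, with ties. Edem1, Herpud1, Asns, Mbtps1 and Mbtps2 were picked for fuller values after these had been seen. Alternatives were other scalings, pseudocounts, filters and model terms, males only, and each sample left out. Without a female the other female carries no information on genotype, and 3 males are compared with 3 males.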

Additional observations from a re-analysis of the deposited data

Results flagged for a closer look

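Within groups of 4 samples, 3 of 62 groups of tested members held a sample whose gap to its nearest neighbour took most of the range of the group, against about 5% by chance. Pdia4 in control replicate 2, at 18.3 FPKM, lay above the other controls (16.4 to 16.5 FPKM), with a gap of 0.918 of the range. Xbp1 in control replicate 1, at 86.9 FPKM, lay above the other controls (76.8 to 77.6 FPKM), with a gap of 0.919 of the range. Atf4 in Lck-cre replicate 7, at 92.4 FPKM, lay below the other Lck-cre samples (97.6 to 98.1 FPKM), with a gap of 0.908 of the range. Without control replicate 1 the call of Xbp1 ended (adjusted p = 0.0630 by limma), while those of Pdia4 without control replicate 2 and of Atf4 without Lck-cre replicate 7 did not change.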

How the results depend on the processing

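Over 18 alternatives, 485 of 558 values of single members kept their direction and side of the threshold, 62 lost the call, 2 gained it and 9, of 5 members that were not called, changed sign. With TPM the log2 change was -0.01 for Pdia6, -0.00 for Ddit3 and -0.02 for Derl2. With 1 sample left out it was -0.23 to 0.18 for Dnajb9 (above 0 without control replicate 4), -0.01 to 0.13 for Ddit3 (below 0 without Lck-cre replicate 8), -0.05 to 0.01 for Derl1 (above 0 without Lck-cre replicate 8 or control replicate 3) and -0.11 to 0.20 for Derl2 (-0.11 without Lck-cre replicate 7 and -0.02 without control replicate 3). The calls of 12 rising and 3 falling members were the same under quantile normalization, median-of-ratios scaling, pseudocounts of 0.1 and 1, the filter on mean FPKM, no sex term and no trend. With TPM 8 rose and 3 fell, all called with FPKM too, while over all genes 2067 fell in place of 1279. In males only, 425 of all genes rose and 227 fell, 3 members rose and 0 fell, and the folding, PERK/ATF4 and IRE1/XBP1 arms had 3, 0 and 0 calls in place of 9, 4 and 2. With no filter, 696 genes rose and 360 fell in place of 1901 and 1279, 6 members rose, and the folding and PERK/ATF4 arms had 5 and 1 calls. Of the other pathway genes, 42 rose and 2 fell. With TPM these were 24 and 6, in males only 9 and 0, with no filter 20 and 1, and with quantile normalization 4 fell. With 1 sample left out, 419 to 2215 of all genes rose and 226 to 1674 fell, 3 to 12 members rose and 0 to 4 fell, 9 to 48 other pathway genes rose and 0 to 5 fell. The arms then had 3 to 9 (folding), 0 to 4 (PERK/ATF4), 0 to 2 (IRE1/XBP1) and 0 to 1 (ERAD) calls, and the log2 change of Sting1 was 3.27 to 3.78. Without a female, 647 (Lck-cre replicate 5) or 653 (control replicate 1) of all genes were called, and without a male 1256 to 3889. Each of these fits lost 1 sample and a degree of freedom. Without a female the other female also carried no information on genotype, and males only gave 652 called genes. The part of this in the difference was not tested. No paired analysis was possible because the labels number the samples 1 to 8 without sharing a number between groups. Precision is limited by 4 samples per group, and for low genes such as Atf6 by coverage.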
